A study of Mus musculus with 16 samples.

Results

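Many Egr, Fos and Jun genes are immediate-early genes, and 10 genes of these families were followed here in mouse embryonic stem (ES) cells treated with doxorubicin: Egr1, Egr2, Egr3, Fos, Fosb, Fosl1, Fosl2, Jun, Junb and Jund. They are defined by name, as members of these 3 gene families, and all 10 were found among the 22375 genes of the deposited count tables. Immediate-early genes are transcribed within minutes of a signal at the cell surface or of a stress, without the need for newly made protein. Fos proteins pair with Jun proteins through a leucine zipper to form AP-1, a transcription factor that binds a short palindrome in many promoters and enhancers, while Egr proteins are zinc finger factors that bind GC-rich sites. Doxorubicin is a DNA intercalator that traps topoisomerase II and breaks DNA.

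Strand-specific RNA-Seq was carried out on total RNA depleted of ribosomal RNA from 2 ES cell lines of the 129/OLA strain, WT cells (E14Tg2a) and Cfp1-/- cells. Cfp1, encoded by Cxxc1, is a CpG-binding subunit of the Set1 complexes that methylate histone H3 at lysine 4, and the study asked how far its absence changes induced transcription. All cells were grown in serum and LIF (Leukemia Inhibitory Factor) on gelatin, and each line was left untreated or received doxorubicin for 6 hours at 1 µM according to the treatment protocol, although the treatment labels of the samples read 1 mM. Each of the 4 groups had 2 biological replicates with 2 technical replicates each, and technical replicates were summed, so that n = 2 per group and a genotype is represented by 1 cell line. Nothing in the sources used here says whether biological replicates came from separate cultures, so the p-values measure the spread between these samples.

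The libraries held 14880589 to 29422711 counts. Cxxc1 had 616 to 1412 counts in the WT libraries and 1 to 5 in the Cfp1-/- libraries. The summed level of 9 pluripotency markers, which include Pou5f1 and Nanog, was 70244 to 95044 normalized counts in untreated WT and 81464 to 81846 in untreated Cfp1-/- cells, and every one of the 9 was above 200 in every library. Single markers differed between the untreated lines. By edgeR's test, described below, 3 of the 9 were higher and 3 lower in Cfp1-/- cells, beside 17.9% and 16.1% of all tested genes. Mean levels in untreated WT and Cfp1-/- cells were 15280 and 9563 for Pou5f1, and 5035 and 13544 for Nanog. The 2 runs of a library agreed within counting noise in 6 libraries (chi-square over its degrees of freedom 0.998 to 1.05), but not in replicate 1 of treated WT cells (9.61) or in replicate 1 of treated Cfp1-/- cells (42.9), where the second run lacked most counts on chromosome 19 from 5849702 onwards (8881 against 360988 in the first run) and on chromosome X (16367 against 347371) and had none on chromosome Y (0 against 6333). Fosl1 ends 394 kb before that point and kept its counts, with 519 in the first and 377 in the second run of that library.

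Levels are given as normalized counts, the authors' counts divided by a size factor per library, as mean ± SD. Fold changes are log2 values from edgeR's quasi-likelihood test on the raw counts of all 8 libraries, with the Benjamini-Hochberg adjustment over the 15758 genes that passed the filter on low counts, and a gene is said to rise, fall or change where its adjusted p was under 0.05. Of the 10 genes, 9 passed the filter. Egr3 did not, with 1 to 15 raw counts in any library, and is described by its values alone.

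Promoter windows from RefSeq, which end 50 bases after the start RefSeq gives and begin 250 bases before it, were available for 7 of the 10 genes on the build GRCm38.p6, and not for Egr1, Egr3 and Fosl1. The 150 bases before the start are shown for Fos and Jun, which rose in both lines, and for Junb, which rose in WT cells. These carry some of the short elements through which such genes are known to be controlled. Capitals mark the letters TGACG, the core of a cAMP response element, TGACATCA, a variant of the AP-1 site, CCAAT and TATAAA.
Fos, chr12:85473740-85473889, plus strand: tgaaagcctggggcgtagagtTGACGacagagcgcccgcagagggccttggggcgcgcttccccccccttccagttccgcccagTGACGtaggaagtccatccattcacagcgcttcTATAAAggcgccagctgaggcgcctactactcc
Jun, chr4:95052223-95052372, minus strand: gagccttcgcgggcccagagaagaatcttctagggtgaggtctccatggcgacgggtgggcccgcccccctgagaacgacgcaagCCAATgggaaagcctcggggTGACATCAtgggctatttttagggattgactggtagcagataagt
Junb, chr8:84978749-84978898, minus strand: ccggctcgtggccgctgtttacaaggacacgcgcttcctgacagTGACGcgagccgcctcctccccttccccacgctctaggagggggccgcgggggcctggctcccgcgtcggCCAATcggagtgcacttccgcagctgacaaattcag

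The Fos window held TGACG at 129 and 66 bases before the start and TATAAA at 33 bases before it. In Jun, CCAAT stood 65 bases and TGACATCA 45 bases before the start, and in Junb TGACG stood at 106 and CCAAT at 36 bases before it. The Junb window also held TATAAA at bases 1 to 6 after the start, outside the stretch shown. TGACG was found in windows of Fosb and Egr2 as well, and CCAAT in windows of Egr2. A CArG box, the binding site of serum response factor, was found in 4 windows listed for Egr2, several of which overlap and share the same box. The Egr site GCGNGGGCG was found in windows of Fosb and Fosl2. The window of Jund held none of the searched letters. Among all 32851 windows of this length, TGACG was present in 20.8%, TGACATCA in 3.62%, CCAAT in 37.4%, TATAAA on the sense strand in 8.32%, GCGNGGGCG in 5.55% and a CArG box in 1.63%, so that TGACG and CCAAT are common letters. The AP-1 site itself, TGANTCA, was in 7.81% of all windows and in none of the 7 genes. All but TATAAA were searched on both strands, and a match is a description of the letters, not of a bound factor.

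Of the Fos family, Fosl1 and Fos rose with doxorubicin treatment in both lines, and Fosl1 rose by far the most. Fosl1 (Fra-1; ENSMUSG00000024912, chr19:5447703-5455945 on NCBIm37, plus strand; all gene coordinates are on that build) encodes a Fos protein without the strong transactivation domain of Fos. It had 22.9 and 20.8 normalized counts in untreated WT cells and 1157 and 939 after treatment. Its level in Cfp1-/- cells was 23.2 and 27.9 without and 915 and 891 with doxorubicin. The level was low and close in all 4 untreated libraries and high and close in all 4 treated ones. The log2 fold change was 5.61 (SE 0.22; adjusted p = 1.7e-06), or 49-fold, in WT cells and 5.18 (SE 0.22; adjusted p = 2.2e-06), or 36.2-fold, in Cfp1-/- cells. In WT cells 1.18% of all tested genes had a larger log2 fold change. In RNA from whole cultures, fewer cells that express a gene and less RNA per cell cannot be told apart. The difference between the lines, Cfp1-/- response minus WT response, was -0.44 with a 95% interval from -1.12 to 0.25, and did not pass the test (adjusted p = 0.67).

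**Figure D1:**
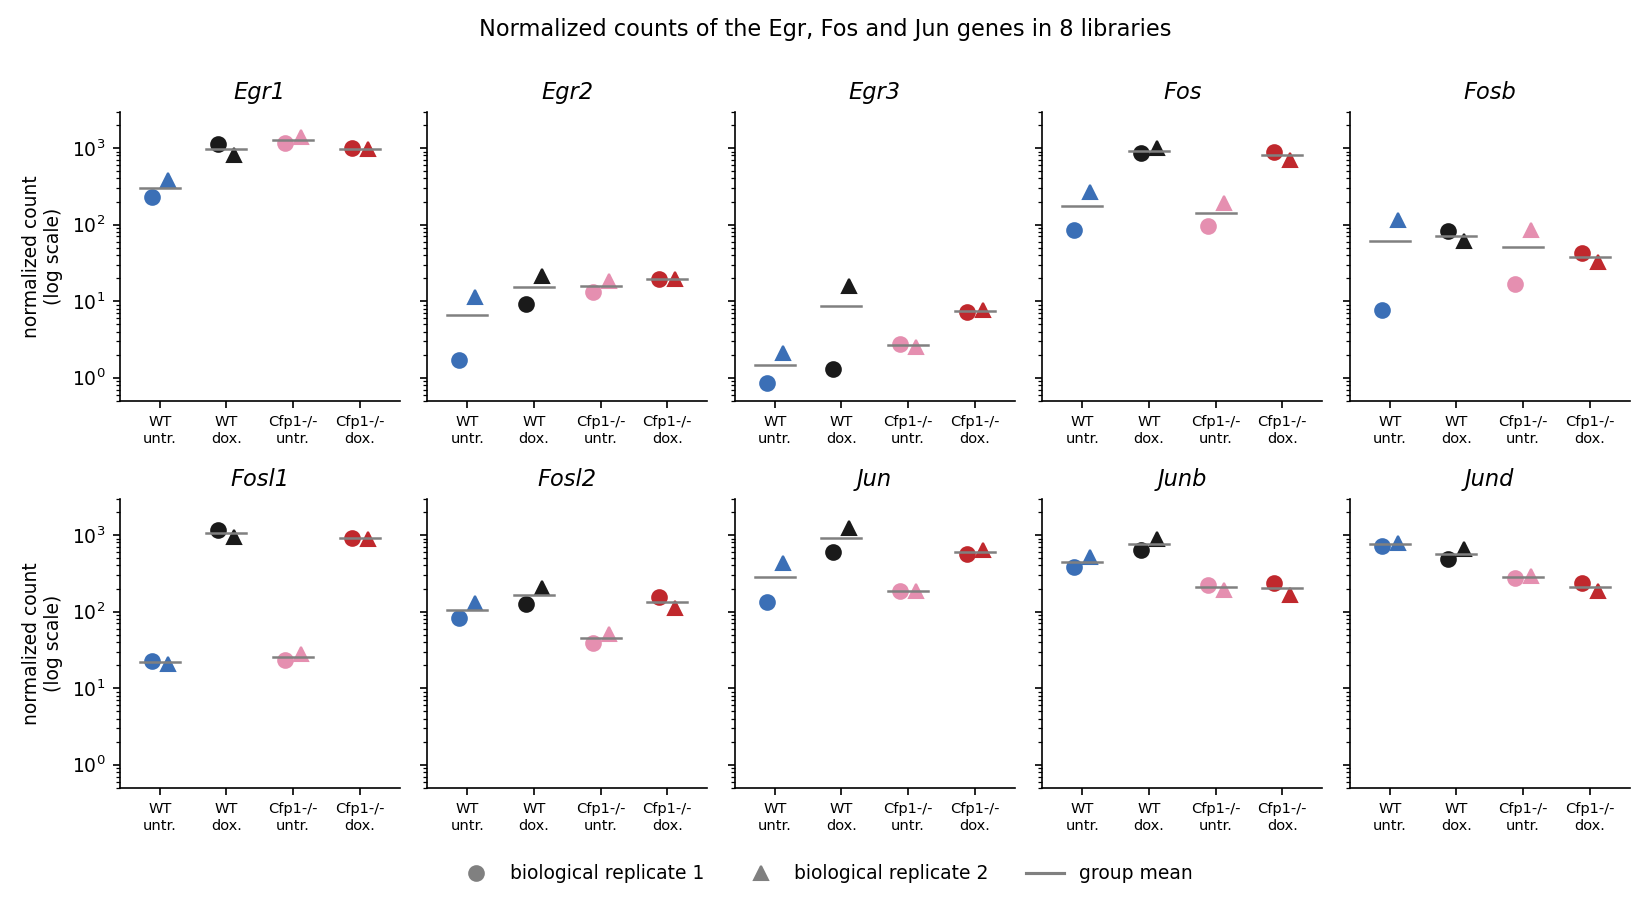
Normalized counts of the 10 genes in each of the 8 libraries on a log axis, with a circle for biological replicate 1, a triangle for replicate 2 and a grey line for the group mean. Fosl1 stands at 20.8 to 27.9 in the untreated and at 891 to 1157 in the treated libraries of both lines, whereas Egr1 is low in the untreated WT libraries alone.

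Fos (ENSMUSG00000021250, chr12:86814840-86818223, plus strand), the founding member of the family, had 84.1 and 268 normalized counts in untreated WT cells and 858 and 988 in treated ones. In Cfp1-/- cells it had 94.6 and 192 without and 893 and 706 with doxorubicin. Treated libraries lay above untreated ones in both lines, and replicate 2 was the higher of the untreated libraries in both. The log2 fold change was 2.45 (SE 0.47; adjusted p = 0.0022) in WT and 2.52 (SE 0.47; adjusted p = 0.0019) in Cfp1-/- cells. These values moved with single untreated libraries. Without replicate 1 of untreated WT cells the WT value was 1.83, without replicate 2 it was 3.49, and without replicate 2 of untreated Cfp1-/- cells the Cfp1-/- value was 3.11, all of them past the test. The difference between the responses was 0.07 with a wide interval, from -1.37 to 1.51 (adjusted p = 0.99).

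Fosl2 (Fra-2; ENSMUSG00000029135, chr5:32438845-32460204, plus strand) had 83.2 and 128 normalized counts in untreated and 124 and 205 in treated WT cells, and these groups overlapped. It had 38.9 and 50.7 in untreated and 153 and 111 in treated Cfp1-/- cells, which did not. It rose in Cfp1-/- cells, by 1.60 on the log2 scale (SE 0.36; adjusted p = 0.0053), while the WT value of 0.69 (SE 0.35) did not pass (adjusted p = 0.13, and 0.036 when scaled to total counts). The difference of 0.90, with an interval from -0.21 to 2.02, did not pass either (adjusted p = 0.57).

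Fosb (ENSMUSG00000003545, chr7:19888070-19895394, minus strand) was the least reproducible of the family. It had 7.64 and 114 normalized counts in untreated WT cells, 82.5 and 60.2 in treated WT cells, 16.7 and 84.5 in untreated Cfp1-/- cells and 42.9 and 32.8 in treated ones. In both lines the 2 treated values lay between the 2 untreated ones, and neither fold change passed the test. The values were 0.30 (SE 0.94) in WT and -0.38 (SE 0.96) in Cfp1-/- cells, with adjusted p-values of 0.81 and 0.77. Without replicate 2 of untreated WT cells the WT value became 3.23 (adjusted p = 0.024), and without replicate 1 it became -0.63.

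Compared per kb of exon, so that genes of unequal length can be set side by side, the makeup of the Fos family differed between untreated and treated cells. Summed over the 4 genes, the normalized count per kb was 65.4 and 178 in untreated WT and 1086 and 1021 in treated WT cells, and 64.9 and 129 against 953 and 850 in Cfp1-/- cells. Fos held the largest share in each untreated library, 54.6% to 63.9% in WT and 62.0% to 63.2% in Cfp1-/- cells, and Fosl1 the largest in each treated one, 53.9% to 62.4% and 56.2% to 61.4%. The mean share of Fosl1 was 13.7% before and 58.1% after treatment in WT cells, and 16.8% and 58.8% in Cfp1-/- cells. Fosb and Fosl2 together made up less than Fosl1 in every treated library, with mean shares of 1.80% and 2.69% in WT cells.

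Of the Jun family, Jun rose in both lines, Junb rose in WT cells, and Jund passed the test in neither line. Jun (ENSMUSG00000052684, chr4:94715725-94718913, minus strand), whose protein is activated by the JNK kinases and pairs with all Fos proteins, had 135 and 435 normalized counts in untreated and 609 and 1234 in treated WT cells. The Cfp1-/- libraries had 187 and 184 without and 566 and 644 with doxorubicin. The groups did not overlap within a line, and the WT replicates lay further apart than those of Cfp1-/- cells. The log2 fold changes were 1.75 (SE 0.47; adjusted p = 0.012) in WT and 1.74 (SE 0.48; adjusted p = 0.013) in Cfp1-/- cells. The WT value fell to 1.15 without replicate 2 of treated cells, where it no longer passed (adjusted p = 0.091), and was 1.14 and 2.81 without replicate 1 or 2 of untreated cells. The Cfp1-/- call was lost without replicate 1 or 2 of untreated or replicate 2 of treated cells, with log2 fold changes of 1.76, 1.72 and 1.66. The difference between the responses was -0.00, with an interval from -1.54 to 1.53.

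Junb (ENSMUSG00000052837, chr8:87500811-87502617, minus strand), a Jun protein that activates more weakly than Jun, had 379 and 513 normalized counts in untreated and 643 and 880 in treated WT cells. In Cfp1-/- cells the 4 values were 222 and 193 without and 237 and 165 with doxorubicin. The WT groups were apart, while treated Cfp1-/- cells enclosed the untreated ones. The log2 fold change was 0.82 (SE 0.25; adjusted p = 0.021) in WT and -0.00 (SE 0.26; adjusted p = 0.99) in Cfp1-/- cells, where scaling to total counts turned it to 0.21. The WT call was lost without replicate 1 of untreated cells (0.62; adjusted p = 0.13) or replicate 2 of treated cells (0.58; adjusted p = 0.14). The difference of -0.83, from -1.63 to -0.03, had an unadjusted p of 0.044 and did not pass after adjustment (adjusted p = 0.45).

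Jund (ENSMUSG00000071076, chr8:73221638-73224515, plus strand), the Jun gene known for steady expression in resting cells, had 708 and 799 normalized counts in untreated and 483 and 654 in treated WT cells. It had 275 and 288 in untreated and 236 and 183 in treated Cfp1-/- cells. Treated values were below untreated ones in both lines, with log2 fold changes of -0.36 (SE 0.20; adjusted p = 0.18) and -0.38 (SE 0.21; adjusted p = 0.16). In the Jun family Jund and Junb held most of the normalized count per kb in untreated WT cells, with mean shares of 44.6% and 41.4% against 14% for Jun. After treatment Jun held 30.9% in WT cells and 51.0% in Cfp1-/- cells, where it was the largest of the family in both libraries.

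**Figure D2:**
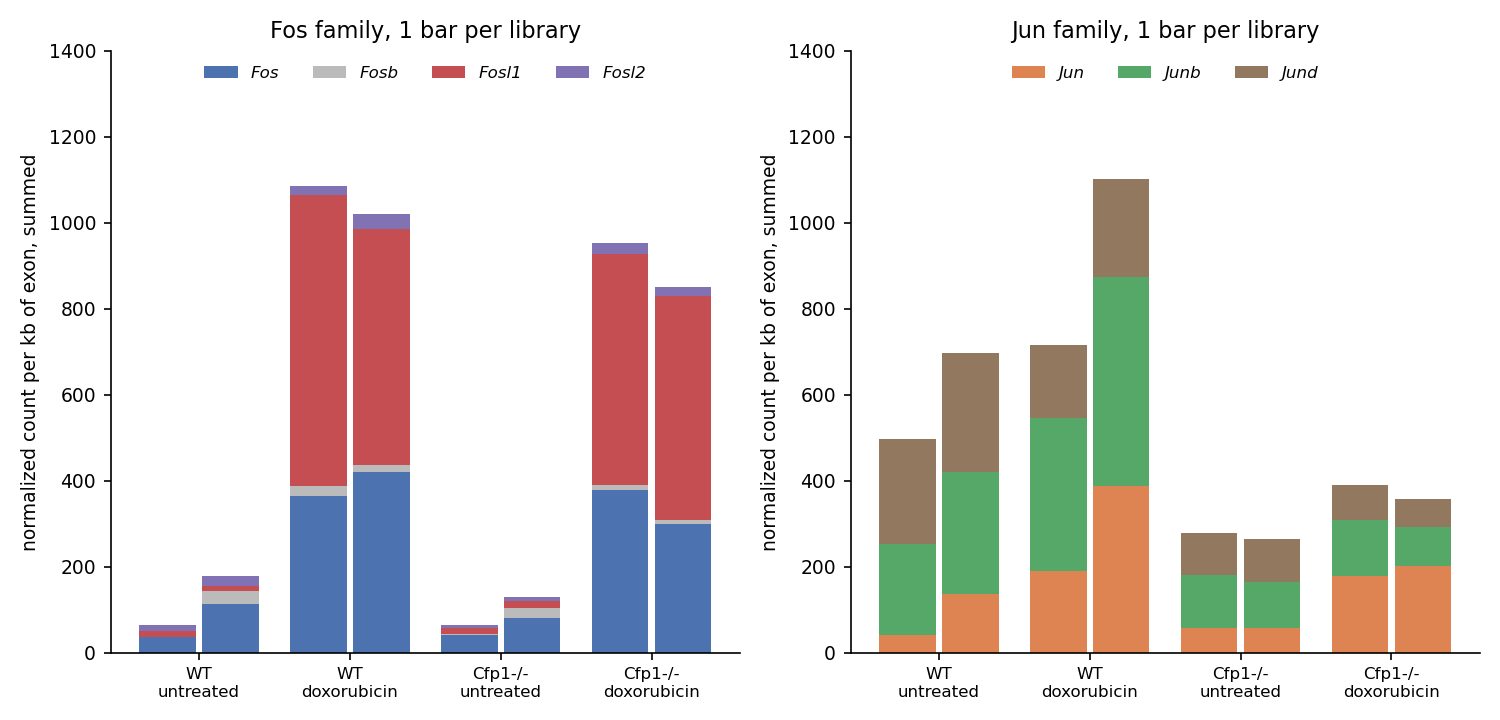
Normalized counts per kb of exon, summed over the Fos family (left) and the Jun family (right), with 1 bar per library and the height of each colour giving 1 gene. Fosl1 makes up 53.9% to 62.4% of each treated bar of the Fos family, and the Jun family bars of the Cfp1-/- libraries, at 265 to 391, are all lower than those of the WT libraries.

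Egr1 was the member whose response differed most between the lines. Egr1 (ENSMUSG00000038418, chromosome 18, plus strand), a zinc finger factor induced by growth factors through serum response factor, had 233 and 377 normalized counts in untreated and 1116 and 821 in treated WT cells. The Cfp1-/- libraries had 1148 and 1374 without and 999.8 and 964 with doxorubicin. Untreated WT libraries were the lowest, untreated Cfp1-/- libraries the highest, and the 4 treated libraries lay between them without separating by line. It rose in WT cells by 1.72 on the log2 scale (SE 0.24; adjusted p = 0.00035) and had a value of -0.32 (SE 0.23; adjusted p = 0.28) in Cfp1-/- cells, with an interval from -0.83 to 0.20. The difference between the responses was -2.03 with a 95% interval from -2.78 to -1.29. It did not pass edgeR's test (adjusted p = 0.055), and passed with the replicate number as a block (adjusted p = 0.0071) and in DESeq2 (adjusted p = 8.1e-06). With replicate 2 of untreated WT cells left out, the value became -2.45 and passed edgeR's test (adjusted p = 0.035).

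Egr2 (ENSMUSG00000037868, chr10:66998223-67004936, plus strand) and Egr3 (ENSMUSG00000033730, chr14:70477252-70479964, plus strand), related factors best known from the nervous system and lymphocytes, were close to the limit of detection. Egr2 had 1.70 and 11.5 normalized counts in untreated WT cells, 9.17 and 21.1 in treated WT cells, 13 and 18.6 in untreated and 19.4 and 19.3 in treated Cfp1-/- cells. None of its fold changes passed the test, with 1.33 (SE 0.75; adjusted p = 0.17) for the WT response, which became 3.13 (adjusted p = 0.025) without replicate 2 of untreated WT cells. Egr3 had 0.85 and 2.08 normalized counts in untreated WT, 1.31 and 15.8 in treated WT, 2.78 and 2.54 in untreated Cfp1-/- and 7.15 and 7.71 in treated Cfp1-/- cells. The value of 15.8 came from 15 raw counts. Per kb of exon Egr1 made up 94.0% to 99.0% of the 3 Egr genes in every library.

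Set side by side per kb of exon, the order of the genes differed between groups. In untreated WT cells Jund (262) and Junb (247) stood highest and overlapped between replicates, followed by Egr1 (98.4), Jun (89.3) and Fos (74.8), which overlapped as well, and Fosl2, Fosb and Fosl1 stood at 12.8 to 18.1. In treated WT cells Fosl1 was highest at 614, and Junb (421), Fos (392), Egr1 (312) and Jun (289) followed. Replicates of Junb and Fos overlapped, as did those of Egr1 and Jun. Both Fos values (365 and 420) lay above both Egr1 values (360 and 265). Untreated Cfp1-/- cells had Egr1 first at 407, ahead of Junb (115) and Jund (97.9), and treated ones had Fosl1 first at 529, with Fos (340) and Egr1 (317), which overlapped, below it. Egr2 and Egr3 were last in every group, at 1.00 to 5.84.

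In WT cells 5 of the 9 tested genes rose (Egr1, Fos, Fosl1, Jun and Junb) and none fell, while 48.3% of all tested genes changed, 26.5% upward and 21.8% downward. In Cfp1-/- cells 4 of 9 rose (Fos, Fosl1, Fosl2 and Jun) and none fell, beside 48.8% of all tested genes that changed, 27.8% upward and 21.0% downward. Treated and untreated libraries did not overlap for 6 of the 9 genes in WT cells, beside 73.5% of all tested genes, and for 7 of 9 in Cfp1-/- cells, beside 77.5%. With the added limits of a 2.5-fold change and a mean of 200 normalized counts used by the study, 4 genes remained in WT cells (Egr1, Fos, Fosl1 and Jun), where 7.91% of all tested genes passed, and 3 in Cfp1-/- cells (Fos, Fosl1 and Jun), where 7.61% did. The response difference passed for 0 of the 9 genes by edgeR, beside 0.235% of all tested genes. At an unadjusted p under 0.05 it passed for 2, Egr1 and Junb, a limit at which the share of all tested genes was not computed. DESeq2 called 1, Egr1, beside 216 of the 14058 genes it tested.

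**Figure D3:**
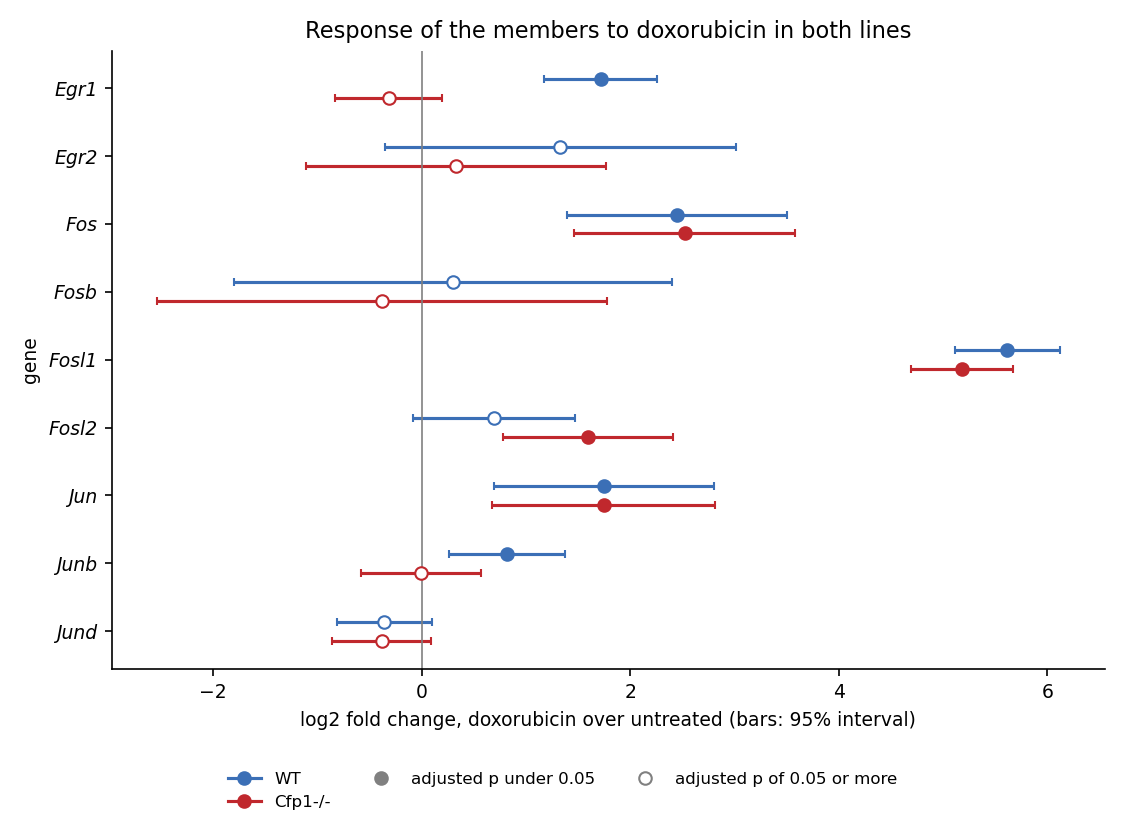
Log2 fold change with doxorubicin of the 9 tested genes in WT (blue) and Cfp1-/- (red) cells, with bars for the 95% interval and filled points for an adjusted p under 0.05. The intervals of Fosl1, Fos and Jun lie above 0 in both lines, whereas that of Egr1 lies above 0 in WT cells (1.18 to 2.26) and includes 0 in Cfp1-/- cells (-0.83 to 0.20).

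Marker lists of cell types did not all move alike with treatment. The summed normalized count of 9 pluripotency markers was 27020 to 36527 in treated WT and 31414 to 38743 in treated Cfp1-/- cells, below the untreated libraries, and 8 and 7 of the 9 fell. Of all tested genes 21.8% fell and 26.5% rose in WT cells, and 21.0% fell and 27.8% rose in Cfp1-/- cells. The summed count of 8 fibroblast markers was 254 to 265 in untreated and 555 to 753 in treated WT cells, and 199 to 267 against 753 to 806 in Cfp1-/- cells, with 3 of 7 tested markers risen in each line. The 3 were Col1a1 (log2 fold change 1.99 in WT and 4.66 in Cfp1-/- cells), Pdgfra (3.02 and 1.58) and Thy1 (0.99 and 1.00). Of the others, Lum stood at 0 to 2.11 in all 8 libraries, and Col3a1 at 24.3 to 62.0 in WT and at 0 to 1.02 in Cfp1-/- libraries. The values of Col3a1 (-0.81 in WT and 1.02 in Cfp1-/- cells), Col1a2 (-0.32 and 0.95), Postn (-0.18 and 1.05) and Dcn (-0.57 and -1.29) did not pass. The median of the 7 tested markers was -0.18 in WT and 1.02 in Cfp1-/- cells. That of 7 trophoblast markers was 219 to 361 and 325 to 586 in WT, and 224 to 362 and 546 to 558 in Cfp1-/- cells. The 8 endoderm markers summed to 174 to 230 in untreated and 145 to 180 in treated WT cells, and to 187 to 417 and 142 to 247 in Cfp1-/- cells. These ranges overlapped in both lines. Of 6 tested endoderm markers 1 rose in WT and 3 rose in Cfp1-/- cells, and none fell. The part of these marker genes in the values of the Egr, Fos and Jun genes was not tested.

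Between the lines, 4 of the 9 genes differed without treatment, where 34.0% of all tested genes differed, 17.9% being higher and 16.1% lower in Cfp1-/- cells. Egr1 was higher in Cfp1-/- cells, and Jund, Fosl2 and Junb were lower. Egr1 differed by 2.08 on the log2 scale (SE 0.24; adjusted p = 0.00038), a 4.23-fold higher level of 1261 ± 160 against 305 ± 102 normalized counts (n = 2 each). Jund differed by -1.39 (SE 0.21; adjusted p = 0.0013), Fosl2 by -1.20 (SE 0.36; adjusted p = 0.029) and Junb by -1.07 (SE 0.25; adjusted p = 0.010). The WT and Cfp1-/- libraries did not overlap for 6 of the 9 genes, these 4 among them, beside 69.9% of all tested genes. With the limits of fold and mean 2 remained, Egr1 and Jund, beside 3.33%. Fosl2 lost its call without replicate 2 of untreated WT cells (-0.86), without replicate 1 or 2 of untreated Cfp1-/- cells (-1.01 and -1.40) and with scaling to total counts (-1.01; adjusted p = 0.055), and Junb lost it without replicate 2 of untreated WT (-0.84) or of untreated Cfp1-/- cells (-0.96).

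With doxorubicin, 2 of the 9 genes differed between the lines, Junb and Jund, both lower in Cfp1-/- cells, beside 25.9% of all tested genes, 15.1% higher and 10.8% lower. Both kept their call with the limits of fold and mean, which 2.61% of all tested genes passed, and 4 of the 9 genes did not overlap between the lines, beside 65.0%. Junb had 201 ± 51.0 normalized counts in treated Cfp1-/- and 762 ± 167 in treated WT cells, a log2 difference of -1.90 (SE 0.26; adjusted p = 0.0013). Jund had 210 ± 37.3 and 569 ± 121, a log2 difference of -1.42 (SE 0.21; adjusted p = 0.0020). Egr1, which differed without treatment, had a difference of 0.05 with treatment, with an interval from -0.47 to 0.56 (adjusted p = 0.90). Fos, Fosl1 and Jun did not pass in either condition. Their differences without and with treatment were -0.25 and -0.18 for Fos, 0.25 and -0.19 for Fosl1, and -0.58 and -0.58 for Jun. Without replicate 1 of untreated WT cells the untreated difference of Jun was -1.19 (adjusted p = 0.036), and without replicate 2 that of Egr2 was 3.16 (adjusted p = 0.039). Since the Cfp1-/- response, the WT response and these differences share libraries, they are not independent of each other.

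Junb and Jund both lie on chromosome 8, and their neighbours were shifted in the same direction. Of the 131 tested genes within 5 Mb of Jund, 32.8% were lower in untreated and 30.5% in treated Cfp1-/- cells, beside 16.1% and 10.8% of all tested genes. Around Junb, 33.3% and 26.5% of 102 genes were lower. The median log2 difference of these neighbours was -0.42 and -0.40 around Jund and -0.39 and -0.39 around Junb, smaller than that of either gene, and the median over 823 tested genes of chromosome 8 was -0.23 and -0.25. The medians around Egr1 were -0.16 and -0.13, opposite in sign to its difference without treatment, and those around Fosl2 were 0.13 and 0.21. A shift along a chromosome was not particular to chromosome 8. Around Fosb, on chromosome 7, the medians were 0.42 and 0.28, and over 1283 tested genes of that chromosome 0.53 and 0.47. Fosb itself had differences of -0.20 and -0.88, neither past the test. Whether the shift along chromosome 8 has a part in the lower Junb and Jund was not tested.

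**Figure D4:**
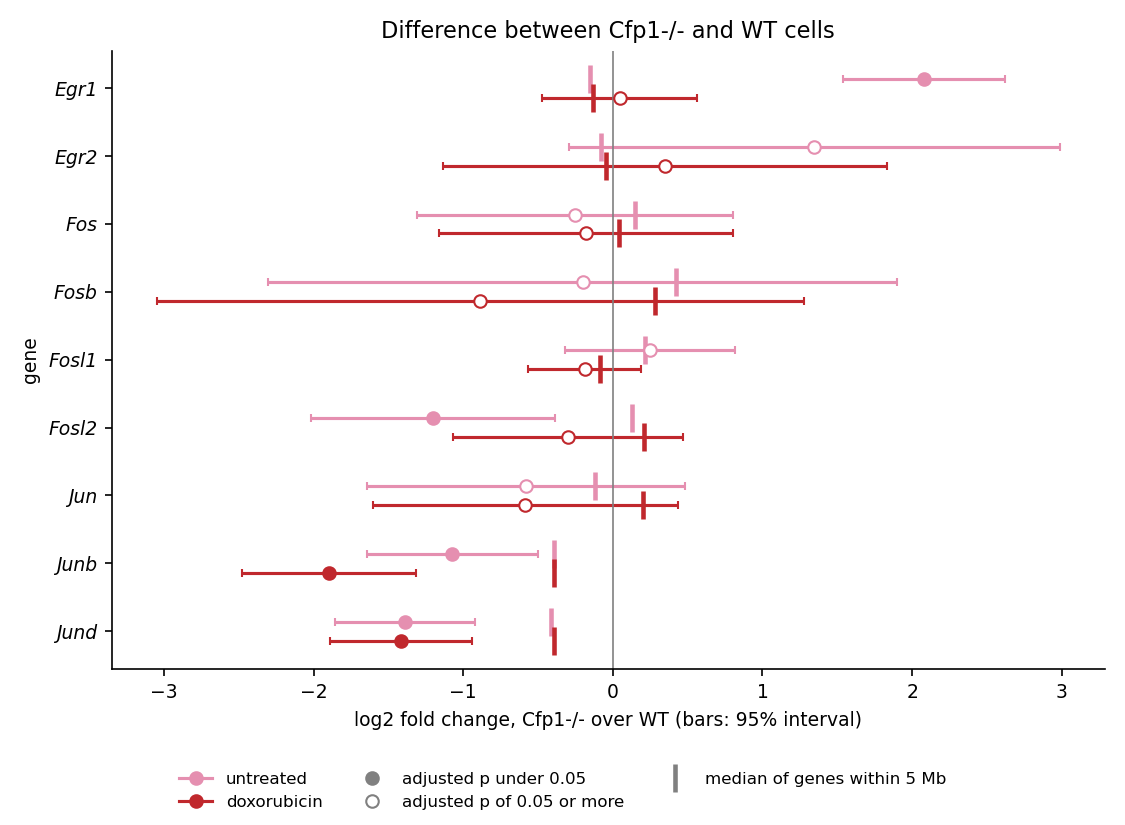
Log2 difference between Cfp1-/- and WT cells of the 9 tested genes without (pink) and with doxorubicin (red), with bars for the 95% interval, filled points for an adjusted p under 0.05 and a vertical tick for the median of the tested genes within 5 Mb. Junb and Jund lie at -1.07 to -1.90, further from 0 than the ticks at -0.39 to -0.42, and Egr1 is at 2.08 without and 0.05 with doxorubicin.

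Replicates were unlike for several of these genes, most of all in untreated WT cells. In untreated WT cells 9 of the 10 genes were higher in replicate 2 than in replicate 1, Fosl1 being the exception, with a median log2 ratio of 0.72, computed on normalized counts plus 1, and 4 of them were above 1.04, the 95th percentile of all tested genes. As plain ratios of normalized counts these 4 had log2 values of 3.89 for Fosb, 2.75 for Egr2, 1.69 for Jun and 1.67 for Fos. Of 31 other immediate-early genes 20 were higher in replicate 2, beside 49.4% of all tested genes. In treated WT, untreated Cfp1-/- and treated Cfp1-/- cells 7, 7 and 2 of the 10 genes were higher in replicate 2, beside 49.4%, 51.3% and 50.1% of all tested genes. The median log2 ratios of the 10 genes were 0.44, 0.26 and -0.20, and 2, 2 and 0 of them were above the 95th percentile of the group.

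Other immediate-early genes moved in both directions. Of 31 tested genes 11 rose and 9 fell in WT cells and 7 rose and 10 fell in Cfp1-/- cells, with medians of 0.54 and 0.06 beside 0.06 and 0.01 over all tested genes. The shares of all tested genes that rose and fell were 26.5% and 21.8% in WT and 27.8% and 21.0% in Cfp1-/- cells. The largest rises among well expressed genes in WT cells were those of Btg2, an antiproliferative gene and p53 target (3.43; 521 ± 151 to 5447 ± 858 normalized counts), Plk2, a polo-like kinase (2.64), and Nr4a1, an orphan nuclear receptor (1.72). The largest falls were those of Sgk1, a serum- and glucocorticoid-induced kinase (-2.54; 5304 ± 117 to 884 ± 279), Klf2 (-1.78) and Trib1 (-1.71). In Cfp1-/- cells the values were 2.80 for Btg2, 3.06 for Plk2, -3.22 for Sgk1, -2.78 for Klf2 and -2.58 for Trib1, all past the test, and 0.58 for Nr4a1, which was not (adjusted p = 0.16). The response difference passed for 0 of the 31 genes by edgeR and by DESeq2. With the replicate block it passed for 1, Zfp36l1, beside 243 of all 15758 tested genes. At an unadjusted p under 0.05 it passed for 9, and the share of all tested genes at that limit was not computed.

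**Figure D5:**
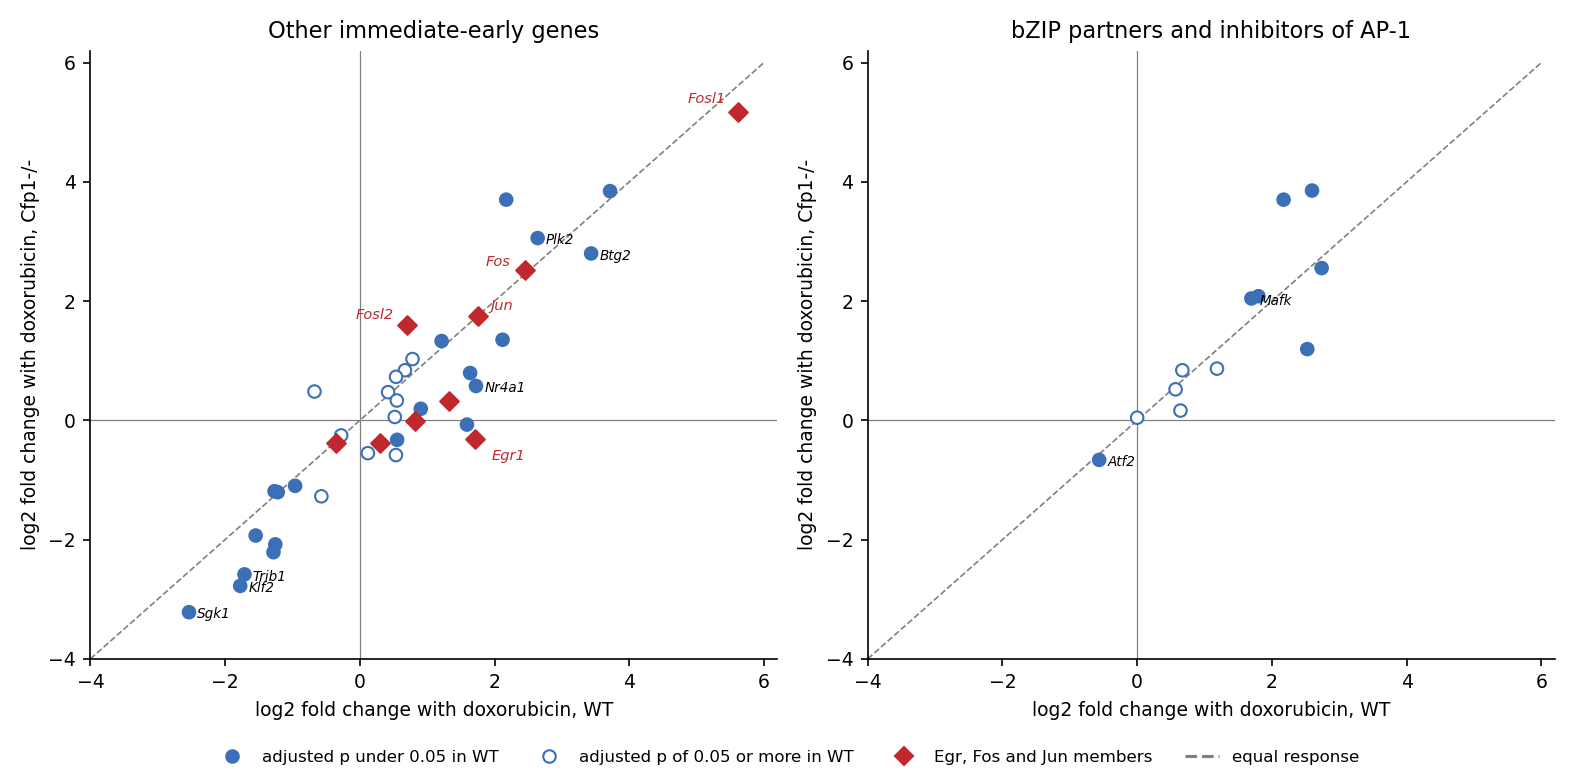
Log2 fold change with doxorubicin in WT cells (horizontal) and in Cfp1-/- cells (vertical) of the other immediate-early genes (left) and of the bZIP partners and inhibitors of AP-1 (right), with the Egr, Fos and Jun genes as red diamonds and a dashed line of equal response. Filled points passed the test in WT cells and Batf2, at 0 in untreated WT cells, is left out. Fosl1 lies beyond all other points, and Egr1 lies below the line at 1.72 and -0.32.

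Among the partners of AP-1, genes that rose outnumbered those that fell. Of 13 tested Ensembl genes of the bZIP list, where Atf7 has 2 entries and the other 11 symbols 1 each, and which holds other leucine zipper partners and inhibitors of Fos and Jun and shares Atf3 and Maff with the immediate-early list, 6 rose and 1 fell in each line. Of all tested genes 26.5% rose and 21.8% fell in WT cells, and 27.8% and 21.0% in Cfp1-/- cells. The median of the list was 1.70 in WT cells, or 1.44 without Batf2, which was at 0 in untreated WT cells, and 0.92 in Cfp1-/- cells. Mafk, a small Maf protein that lacks a transactivation domain, rose from 334 ± 43.0 to 1048 ± 289 normalized counts in WT cells (1.70) and by 2.05 on the log2 scale in Cfp1-/- cells, while Atf2, a partner of Jun at cAMP response elements, fell by 0.56 and by 0.66.

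Genes upstream of AP-1 and Egr1 moved in both directions. Of 19 kinases of the JNK, p38 and ERK pathways 5 rose and 5 fell in WT and 4 rose and 4 fell in Cfp1-/- cells, with 48.3% and 48.8% of all tested genes changed, and the medians were -0.11 and -0.19. Mapk9 (JNK2), Rps6ka5 (MSK1) and Map2k4, an activator of JNK, rose in WT cells by 0.75, 0.59 and 0.55, and Mapk8 (JNK1) and Map2k1 had values of -0.90 and -0.86. Of serum response factor and 7 cofactors and related activators, 1 rose and 1 fell in each line, beside the same shares of all tested genes. In WT cells these were Mkl1, a cofactor of serum response factor (0.95), and Creb1, which binds the cAMP response element (-0.80), and in Cfp1-/- cells they were Crem (0.97) and Elk1 (-1.02). With the replicate block Creb1 passed in Cfp1-/- cells as well (adjusted p = 0.060 without and 0.040 with the block). Srf itself had values of 0.04 and -0.37, neither past the test. Nab2, a corepressor that binds Egr proteins, fell in both lines, by 1.13 and 1.46 on the log2 scale, and was higher in untreated Cfp1-/- than in untreated WT cells, at 413 ± 10.8 against 200.1 ± 22.1 normalized counts (1.07; adjusted p = 0.030). Nab1, the other corepressor listed, went another way. Its values with doxorubicin, -0.20 and -0.18, did not pass. It was lower in untreated Cfp1-/- cells, at 132 ± 6.79 against 472 ± 111 normalized counts (-1.80; adjusted p = 0.0016), and in treated ones (-1.79; adjusted p = 0.0028).

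For 1 gene of each subfamily, the genes with the most similar course were sought among 9493 other genes whose mean was 200 normalized counts or more, by the Pearson correlation of log2 normalized counts plus 1 over the 8 libraries, which fall into treated and untreated. Tex261 (r = 0.954), Scamp4 (0.954) and Dom3z (0.943) were most like Egr1. For Fos they were Bbc3 (0.985), a pro-apoptotic p53 target, Pdzrn3 (0.979) and Tmem184a (0.979), and for Jun Rassf4 (0.981), Hmox1 (0.980), the inducible haem oxygenase, and Slc30a4 (0.980). Tex261 had means of 403, 581, 682 and 585 normalized counts in untreated and treated WT and untreated and treated Cfp1-/- cells, the same order of groups as Egr1 but over a smaller range.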

How the data were processed

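The series holds 16 samples, with 2 biological replicates a group and 2 technical replicates of each, and samples were grouped by their own labels. The authors aligned paired-end reads to NCBIm37 (mm9) with STAR, given as version 2.2.1 in the submitters' processing notes, and counted them over Ensembl exons with HTSeq, stranded and in union mode. They deposited raw counts per technical replicate and, per biological replicate, normalized counts, a signal obtained from the sum of both runs and a size factor from DESeq. Union mode drops reads on overlapping genes. Genes that overlap Egr1, Fosl1 and Jund lie on the opposite strand and are counted apart. Coordinates are those of the deposited tables.

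Technical replicates were summed and fitted in edgeR 4.0.16 (R 4.3.3) with filterByExpr, TMM, 1 coefficient per group, glmQLFit and glmQLFTest, followed by Benjamini-Hochberg adjustment. All 8 libraries share 1 estimate of the spread, with 4 residual degrees of freedom. Each standard error is the log2 fold change over the root of its F value. DESeq2 1.42.0 was an alternative, and the other alternatives are given with their effect at the end. The scripts were tested on simulated data. Exon lengths came from a GENCODE annotation of the same build, in which Egr1 has another start than in the tables, so its level per kb is less certain. Gene symbols were matched for 22324 of 22375 genes.

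Replicate numbers recur in every group, with no word in the labels on what they share. Deviations from the group means of libraries with the same number correlated at 0.140 to 0.451 across genes in 6 group comparisons, and a fit with the number as a block was therefore read as a paired one.

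The 10 genes and the lists were chosen with earlier results of these data known. Within each list, up to 3 genes a direction with the largest WT change, an adjusted p under 0.05 and a mean of 200 normalized counts or more were named, with the 3 genes most correlated with Egr1, Fos and Jun. Of these, 1 gene is not reported here. Genes named outside that rule (Srf, Crem, Elk1, Batf2, Zfp36l1, Nab1, the fibroblast markers, Pou5f1 and Nanog, and Nab2 and Tex261 for their further values) were chosen after their values were seen.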

Additional observations from a re-analysis of the deposited data

Results flagged for a closer look

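The libraries of Egr1 were ordered differently in the 2 lines. Both treated WT libraries were above both untreated WT libraries and both treated Cfp1-/- libraries were below both untreated Cfp1-/- libraries (such groups did not overlap for 73.5% and 77.5% of all tested genes), with a response difference of -2.03 on the log2 scale (SE 0.33). The test of the difference itself did not pass in edgeR (adjusted p = 0.055; unadjusted p = 0.00013), and the Cfp1-/- change of -0.32 did not pass either (adjusted p = 0.28). With the replicate block the difference was -2.04 and passed (adjusted p = 0.0071). Over the alternatives that kept all libraries the adjusted p lay between 8.1e-06 (DESeq2) and 0.056 (DESeq2's size factors in edgeR), and with 1 library left out between 0.035 and 0.29.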

How the results depend on the processing

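Calls were recomputed with DESeq2's size factors, total counts, DESeq2, no filter on low counts, the replicate block, first technical replicates alone, without the second technical replicate of treated Cfp1-/- replicate 1, that with the block, on the 2 groups compared alone, with the study's limits, and with each library left out, where the lone sample is assumed to vary like the other groups. Of 755 values for single genes 693 kept direction and call. The number of genes with a response difference was 1 in place of 0 (Egr1) with total counts, DESeq2, no filter, the replicate block, first technical replicates, and without the affected run with and without the block; the replicate block changed no other call of the 9 genes, and it moved the genes called in WT and Cfp1-/- cells from 20 to 25 and 17 to 21 among other immediate-early genes, from 7 to 9 and 7 to 9 in the bZIP list, from 10 to 12 and 8 to 11 among kinases and from 2 to 2 and 2 to 3 in the serum response factor list. The study's limits left 2 genes between untreated lines. Leaving out 1 library gave 3 to 7 genes for the WT response, 3 to 4 for the Cfp1-/- response, 0 to 1 for the response difference, 2 to 5 between untreated and 2 to 2 between treated lines. The lowest WT count came without replicate 2 of treated WT cells, the 1 response difference without replicate 2 of untreated WT cells and the lowest count between untreated lines without replicate 2 of untreated Cfp1-/- cells.

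Directions that turned did so in values that had not passed the test, and the cause was not tested. With total counts, which moved the median of all genes by 0.31 in WT, 0.21 in Cfp1-/- cells and 0.19 between untreated lines, the Cfp1-/- change of Junb was 0.21, the response difference of Fos -0.037 and the untreated difference of Fosb 0.0014. The Fos response difference was -0.05 without the affected run, -0.074 with the block as well and -0.10 with first technical replicates, where the untreated difference of Fosl1 was -0.026. The treated difference of Egr1 was -0.064 and -0.078 without that run, without and with the block, and the response difference of Jun was 0.00025 with DESeq2's size factors and 0.0062 in DESeq2. With 1 library left out, ranges that crossed 0 were -0.63 to 3.23 for the WT response of Fosb, -1.12 to 1.21 and -0.30 to 0.24 for the Cfp1-/- responses of Fosb and Junb, -1.01 to 0.66, -3.66 to 0.91, -1.10 to 0.59 and -0.23 to 0.21 for the response differences of Fos, Fosb, Jun and Jund, -0.86 to 0.80, -1.79 to 2.74 and -1.19 to 0.48 for the untreated differences of Fos, Fosb and Jun, and -0.16 to 0.28, -0.10 to 1.09, -0.61 to 0.11 and -1.003 to 0.014 for the treated differences of Egr1, Egr2, Fosl2 and Jun.

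With n = 2 per group the intervals were wide, and Egr2 and Egr3, with 1 to 22 raw counts, allowed no firm statement at this depth.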
